A study of Homo sapiens with 12 samples.

Results

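Androgen receptor target genes other than the kallikreins were followed through knockdown of FOXA1 and of TRIM28 in LNCaP cells, an established human prostate cancer line that depends on androgen signalling. The 34 genes were taken from a list of known androgen receptor targets. They were matched by exact symbol among the 60835 gene symbols of the deposited count tables, and the matching used no measured value. The list itself was chosen with earlier results of these data known. Counts of members set beside shares of all genes are therefore descriptions and not tests. The androgen receptor is a hormone-activated transcription factor that binds DNA at pairs of a short hexamer and switches on a programme of secreted, membrane and metabolic genes in luminal prostate cells. FOXA1 is a pioneer factor of the forkhead family that opens the chromatin where the receptor binds. TRIM28, also called KAP1, is a corepressor that KRAB zinc finger proteins bring to DNA, and it is best known for silencing retroelements.

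The 12 libraries formed 4 groups of 3 biological replicates: a negative control and a FOXA1 knockdown, and a separate negative control and a TRIM28 knockdown. All cells received short hairpin RNA, directed against FOXA1 or TRIM28 in the knockdowns and non-targeting in the controls, per the series design. In the titles the knockdown arms appear as SH control, and table columns carry SI, an abbreviation left unexplained. No source used here gives the number of hairpins, the time after knockdown or the hormone content of the medium. The source name in the labels reads LACAP cell. Libraries held between 12256092 and 15152890 counts, and the 34 genes together took between 0.51% and 0.67% of them. Levels below are counts scaled to library size (CPM) after TMM scaling within each knockdown and its control, given as mean ± SD with n = 3 libraries. In bulk RNA, fewer cells that express a gene and less RNA per cell cannot be told apart.

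Among the TRIM28 knockdown libraries, replicate 3 was unlike replicates 1 and 2. Its counts differed from theirs with a chi-square per degree of freedom of 25.8 and 23.3, against 4.03 between those 2 and between 3.12 and 6.31 within the other groups. A list of 7 stromal markers summed to 365 CPM of the library total in this library, against 29.5 to 43.3 CPM in the other 11 libraries. Most of that sum was COL3A1 at 189 CPM, COL1A1 at 130 CPM, DCN at 24.8 CPM and LUM at 13.2 CPM. The others on the list, DES, ACTA2 and PDGFRB, reached at most 2.71, 3.69 and 2.77 CPM in any library. COL1A1 was at 22.6 CPM or more in every library. TRIM28 itself was lower in replicate 3, at 14.0% of the control mean, than in replicates 1 and 2, at 32.0% and 28.5%. Luminal markers, 10 genes, summed to between 4288 and 4383 CPM in the FOXA1 controls and between 4319 and 4360 CPM in the TRIM28 controls. They summed to between 3028 and 3073 CPM after FOXA1 knockdown and between 3069 and 3359 CPM after TRIM28 knockdown. The sum hides both directions: after FOXA1 knockdown 5 of the 10 were called higher and 4 lower (median log2 0.12), and after TRIM28 knockdown 1 higher and 6 lower (median -0.39). The 6 basal markers summed to between 3.23 and 5.66 CPM in the FOXA1 controls and between 32.8 and 35.0 CPM after FOXA1 knockdown, and to between 6.77 and 23.8 CPM after TRIM28 knockdown against 3.28 to 4.25 CPM in its controls. TP63, which defines basal cells, had at most 4 counts in any library, and PTPRC, which defines leukocytes, at most 3. Another leukocyte marker, LCP1, was at 28.5 to 54.2 CPM across libraries. The 6 leukocyte markers summed to between 48.0 and 55.6 CPM in the FOXA1 controls and between 31.7 and 37.4 CPM after FOXA1 knockdown. They summed to between 51.4 and 53.5 CPM in the TRIM28 controls and between 35.2 and 40.6 CPM after TRIM28 knockdown. The 6 neuroendocrine markers summed to 8.65 CPM in TRIM28 knockdown replicate 3 and to at most 3.70 CPM in any other library. The part of the stromal, basal, leukocyte and neuroendocrine signals in the results below was not tested. Values without replicate 3 are given where a call changed or a called value moved by over 1.5 times.

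The knockdowns were visible in their targets. FOXA1 fell 3.45-fold in its knockdown, from 570 ± 32.9 to 166 ± 2.07 CPM. TRIM28 fell 4.02-fold in its own, from 404 ± 8.75 to 100 ± 38.6 CPM. FOXA1 also fell after TRIM28 knockdown, from 583, 616 and 563 CPM to 278, 253 and 412 CPM (log2 fold change -0.90 ± 0.17 SE, edgeR adjusted p = 0.0055).

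Promoter sequence is shown for members that stand for the response patterns below: FKBP5, which split between the knockdowns, SLC45A3, which fell in both, SGK1 and TSC22D1, which rose in both, and STEAP2, the only matched member with a forkhead motif. These 5 were chosen after the values had been seen. Of the 34 members, 27 had an entry in the RefSeq promoter table (GRCh38.p14), with 54 start sites in all. Each line gives the 150 bases upstream of a start site, 5′ to 3′ on the gene's strand, with capitals marking a match on either strand to the androgen receptor hexamer, whose letters are AGAACA, to a forkhead motif, whose letters are TGTTTAC, or to a core promoter box, whose letters are TATAAA. No matches overlap in the windows shown. FKBP5, SGK1, TSC22D1 and STEAP2 have other start sites, whose windows are not shown, and no rule is given for the choice among them. A window shown is therefore not to be read as the promoter of its gene. In the other windows of SGK1 the core promoter box lies nearer the start site than in the window shown. For TSC22D1 the window with the receptor hexamer is shown, and the core promoter box lies in windows not shown. The windows lie at chr6:35728584-35728733 for FKBP5, chr1:205680510-205680659 for SLC45A3, chr6:134318113-134318262 for SGK1, chr13:44474342-44474491 for TSC22D1 (all minus strand) and chr7:90213670-90213819 for STEAP2 (plus strand). The windows of TSC22D1 and STEAP2 lie within introns of those genes, upstream of an internal start site, and the other 3 lie upstream of the gene.
FKBP5: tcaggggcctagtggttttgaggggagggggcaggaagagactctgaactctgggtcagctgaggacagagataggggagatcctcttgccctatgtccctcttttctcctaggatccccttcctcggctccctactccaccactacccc
SLC45A3: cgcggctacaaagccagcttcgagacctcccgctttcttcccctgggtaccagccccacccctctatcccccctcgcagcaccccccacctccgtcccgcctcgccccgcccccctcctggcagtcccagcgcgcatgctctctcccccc
SGK1: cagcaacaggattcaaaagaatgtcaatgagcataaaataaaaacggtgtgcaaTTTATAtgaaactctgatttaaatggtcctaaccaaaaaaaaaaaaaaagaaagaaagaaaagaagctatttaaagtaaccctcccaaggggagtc
TSC22D1: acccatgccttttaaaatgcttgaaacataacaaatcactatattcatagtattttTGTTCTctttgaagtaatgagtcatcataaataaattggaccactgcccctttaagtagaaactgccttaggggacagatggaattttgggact
STEAP2: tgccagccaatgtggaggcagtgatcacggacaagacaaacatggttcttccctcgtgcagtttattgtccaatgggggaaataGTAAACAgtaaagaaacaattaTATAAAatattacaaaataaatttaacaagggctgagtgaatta
Over 250 bases upstream of every start site in the table, the receptor hexamer was found in 12.4% of 35116 windows and in 11.1% of the members' 54 windows, those of LIFR, MICAL1, PMEPA1, SPON2, TRPM8 and TSC22D1. The forkhead motif was found in 2.98% of all windows and 1.85% of the members' windows, and the core promoter box in 10.7% and 18.5%. These are matches of letters and not sites of binding, and most receptor binding sites lie far from promoters.

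In control cells the members spanned a wide range of expression per length. By median over the 6 control libraries, 27 of 34 members lay at or above 10 FPKM, the count scaled by gene length and library total. STEAP1, a prostate membrane antigen, was the most abundant at 192 FPKM (range 182 to 199), and its range overlapped that of the next, DBI, an acyl-CoA binding protein, at 153 FPKM (151 to 195). UAP1, which makes the sugar nucleotide UDP-GlcNAc, followed at 115 FPKM, the polyol enzyme SORD at 92.3 FPKM and the membrane carrier SLC45A3 at 85.8 FPKM. TMPRSS2, a membrane serine protease, stood at 68.2 FPKM and FKBP5, a cochaperone of steroid receptors, at 39.1 FPKM. At the low end were the transcription factor MAF at 1.31 FPKM, the kinase SGK1 at 0.278 FPKM and the metalloreductase STEAP4 at 0.0738 FPKM. Of the 33 pairs of neighbours in this order, 18 had overlapping ranges, so much of the order between neighbours is not resolved.

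**Figure D1:**
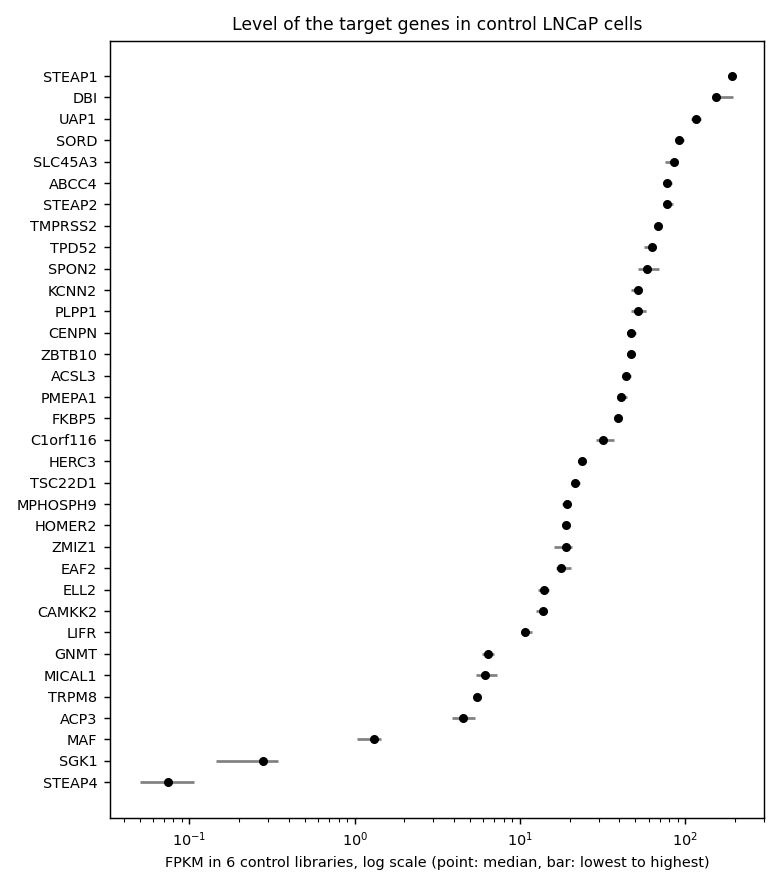
FPKM of the 34 genes in the 6 control libraries on a log scale, points at the median and bars from the lowest to the highest library. STEAP1 at 192 FPKM is at the top and STEAP4 at 0.0738 FPKM at the bottom.

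All 34 members passed the filter on low counts in every comparison. With FOXA1 controls alone, 33 of 34 reached the level of that filter, 0.707 CPM, in all 3 libraries. The exception was STEAP4, which entered that comparison through the knockdown libraries, so its rise is partly fixed by the filter. Between the 2 control groups, none of the 34 was called by edgeR or by DESeq2, and 0 of all 14839 genes tested were. At an unadjusted p below 0.05, 2 of 34 members differed there, SPON2 and MICAL1, both higher in the TRIM28 controls (log2 0.16 and 0.21), against 635 of 14839 genes.

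After FOXA1 knockdown the target genes moved in both directions: 17 of 34 fell and 13 rose (edgeR quasi-likelihood test, Benjamini-Hochberg adjusted p below 0.05 over all tested genes). The 13 include STEAP4, whose rise the filter partly fixes. Of all 14953 genes tested, 26.3% were called lower and 26.1% higher. The median log2 fold change of the members was -0.19, against -0.02 for all genes tested. By the role groups used here, the membrane and secreted proteins of the prostate mostly fell, 9 of 11, while signalling and adaptor proteins mostly rose, 6 of 9. These groups are approximate and were drawn with earlier results of these data known. C1orf116, a gene of unclear function, was counted among the 9. After TRIM28 knockdown 18 of 34 fell and 2 rose, SGK1 and TSC22D1, against 13.3% lower and 13.3% higher among 14981 genes tested. The median of the members was -0.29, against 0.00 for all genes. With scaling by library size only, 14 members were called lower and 3 higher after TRIM28 knockdown, and the share of calls that were upward among all genes was 63.4% instead of 49.9%. Without replicate 3 of the TRIM28 knockdown, 22 members were called lower and 4 higher, and of 15475 genes tested 23.5% were called lower and 21.5% higher. Leaving out TRIM28 control replicate 2 gave 11 lower and 2 higher, with 5.65% of all genes called lower and 6.01% higher. Leaving out TRIM28 control replicate 3 gave 12 lower and 1 higher, with 7.18% of all genes called lower and 6.58% higher.

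**Figure D2:**
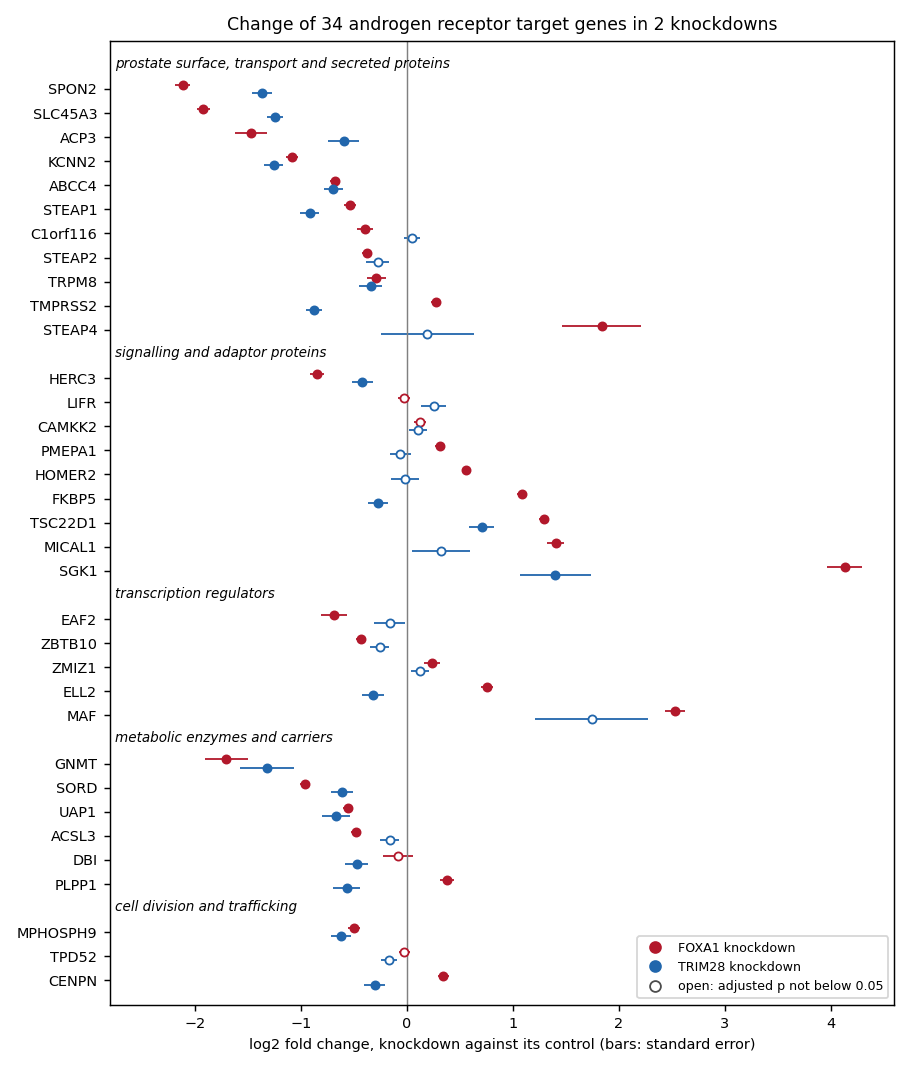
Log2 fold change of each of the 34 genes against its own control, FOXA1 knockdown in red and TRIM28 knockdown in blue, grouped by role, with standard errors as bars and open symbols where the adjusted p was not below 0.05. SGK1 lies farthest to the right at 4.13 and SPON2 farthest to the left at -2.12, both after FOXA1 knockdown.

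Set side by side, the commonest pattern was a fall in both knockdowns, seen in 12 members, against 10.1% of the 14498 genes tested in both. Another 5 members, TMPRSS2, FKBP5, ELL2, PLPP1 and CENPN, were called higher after FOXA1 knockdown and lower after TRIM28 knockdown, a pattern held by 0.531% of all genes. SGK1 and TSC22D1 were called higher in both, against 9.8% of all genes, and no member was called lower after FOXA1 and higher after TRIM28 knockdown, against 0.352% of all genes. Of the remaining members, 6 rose only after FOXA1 knockdown by these calls, STEAP4 with its filter-dependent rise among them, and 5 fell only after FOXA1 knockdown. DBI fell only after TRIM28 knockdown, and CAMKK2, LIFR and TPD52 were called in neither. Such one-sided calls do not show that the knockdowns differ. Across the 34 members the 2 log2 fold changes had a Spearman correlation of 0.74 and a Pearson correlation of 0.85, with 25 of the same sign. Correlation over all genes was not computed. Shared direction was not particular to the members. Of all genes tested in both, 10.1% were called lower and 9.8% higher in both, against 0.531% and 0.352% called in opposite directions. The 2 comparisons share no library. Without replicate 3 of the TRIM28 knockdown, 15 members fell in both, 4 rose in both and 5 split as before.

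**Figure D3:**
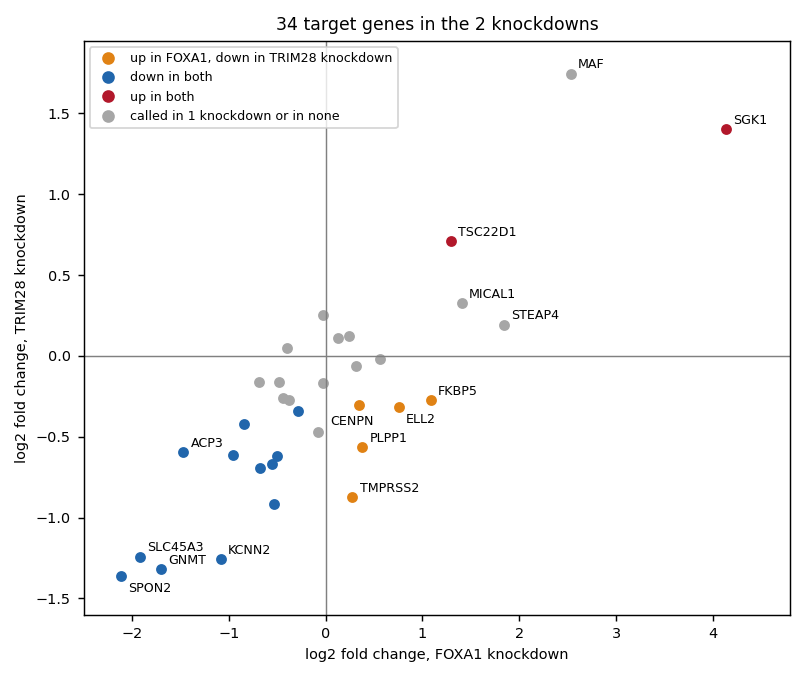
Log2 fold change of each of the 34 genes after FOXA1 knockdown on the horizontal axis and after TRIM28 knockdown on the vertical axis, coloured by the calls. The 5 orange genes lie right of 0 and below 0, and the blue genes that fell in both lie at the lower left.

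A contrast fitted to the 12 libraries compared the 2 effects directly. It was called for 16 members: for 10 the change after FOXA1 knockdown lay above that after TRIM28 knockdown, and for 6 below. Among 15921 genes tested, 5.98% were called above and 4.59% below. The 5 split genes lie apart from each other in the genome, by the deposited GRCh38 coordinates: TMPRSS2 at chr21:41464300-41531116, FKBP5 at chr6:35573585-35728583, ELL2 at chr5:95885098-95961851, PLPP1 at chr5:55424854-55534969 and CENPN at chr16:81006552-81033114. All 5 were among the 10, and each of them kept its call in all 17 alternative settings of the analysis. With scaling by library size only, the counts were 8 above and 7 below, and 40% of the calls over all genes were above instead of 56.6%. Without replicate 3 of the TRIM28 knockdown they were 13 above and 7 below, against 12.7% above and 8.64% below among all genes. The count below fell to 2 without FOXA1 control replicate 1 and to 3 without FOXA1 control replicate 2 or TRIM28 control replicate 1. Of all genes, 2.73%, 2.99% and 2.71% were called below in these settings, in that order.

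TMPRSS2, best known as the promoter partner in ERG gene fusions of prostate cancer, gave the clearest split. Its level was 283, 279 and 274 CPM in the FOXA1 controls and 339, 330 and 344 CPM after FOXA1 knockdown. In the TRIM28 arm it was 280, 292 and 289 CPM in controls and 154, 160 and 156 CPM after knockdown. The control groups lay at one level, every FOXA1 knockdown library lay above them and every TRIM28 knockdown library below, replicate 3 included. The rise was 1.21-fold (log2 0.28 ± 0.04 SE, edgeR adjusted p = 6.34e-06) and the fall 1.83-fold (log2 -0.87 ± 0.08 SE, edgeR adjusted p = 1.76e-04), and both were called in all 14 alternatives. The difference between the effects was 1.16 ± 0.08 SE on the log2 scale (edgeR adjusted p = 8.53e-08).

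FKBP5, a cochaperone of Hsp90 that is also induced by glucocorticoids, had the largest rise of the split genes. It went from 294, 303 and 291 CPM to 639, 615 and 629 CPM after FOXA1 knockdown, a rise of 2.12-fold (log2 1.08 ± 0.04 SE, edgeR adjusted p = 2.27e-18). After TRIM28 knockdown it went from 278, 306 and 285 CPM to 237, 264 and 218 CPM (log2 -0.27 ± 0.09 SE, edgeR adjusted p = 0.0485). The libraries of control and knockdown did not overlap in either arm, but the second change was small. ELL2, an elongation factor of RNA polymerase II, went from 81.1, 87.9 and 76 CPM to 145, 135 and 135 CPM after FOXA1 knockdown (log2 0.76 ± 0.06 SE, edgeR adjusted p = 7.13e-12). After TRIM28 knockdown it went from 77.8, 91.6 and 83.6 CPM to 63.3, 64.4 and 75.4 CPM (log2 -0.32 ± 0.10 SE, edgeR adjusted p = 0.045). Replicate 3 of the TRIM28 knockdown lay nearest the controls for ELL2 and farthest from them for FKBP5.

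PLPP1, a phosphatase of signalling lipids, stood at 75.1, 89.2 and 73.8 CPM in the FOXA1 controls and at 106, 99.9 and 104 CPM after FOXA1 knockdown (log2 0.38 ± 0.07 SE, edgeR adjusted p = 1.67e-05). It stood at 85.2, 78.7 and 92.9 CPM in the TRIM28 controls and at 61.5, 65.3 and 46.6 CPM after TRIM28 knockdown (log2 -0.57 ± 0.13 SE, edgeR adjusted p = 0.0103). Again no library of a knockdown reached the range of its controls. CENPN, a centromere protein that binds CENP-A nucleosomes, went from 183, 179 and 200 CPM to 239, 227 and 248 CPM after FOXA1 knockdown (log2 0.35 ± 0.05 SE, edgeR adjusted p = 1.76e-06). After TRIM28 knockdown it went from 187, 199 and 184 CPM to 155, 173 and 135 CPM (log2 -0.30 ± 0.10 SE, edgeR adjusted p = 0.0455). The strand setting of the counting is not known, and both genes share exon bases with a gene on the opposite strand. For PLPP1 these are 481 bases (23.9% of its exons) shared with MTREX, which changed by -0.27 on the log2 scale after FOXA1 knockdown and by 0.03 after TRIM28 knockdown. For CENPN they are 457 bases (12.8%) shared with CMC2, at -0.04 and -0.73, the latter with an edgeR adjusted p of 0.0128, so reads of CMC2 could enter the CENPN value.

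The TRIM28 falls of FKBP5, ELL2 and CENPN lay close to the threshold. Each lost its call when any 1 of the 3 TRIM28 controls or knockdown replicate 1 was left out, ELL2 also without knockdown replicate 2, with adjusted p-values up to 0.168 for FKBP5, 0.175 for ELL2 and 0.157 for CENPN. PLPP1 lost it without TRIM28 control replicate 3 (edgeR adjusted p = 0.0559). With scaling by library size only, the log2 fold changes were -0.20 for FKBP5, -0.24 for ELL2 and -0.23 for CENPN, and none was called. On both FPKM scales none of them was called either (limma adjusted p from 0.0955 to 0.137). FKBP5 also lost its call with RLE scaling (edgeR adjusted p = 0.0504), and ELL2 with the replicate block (edgeR adjusted p = 0.050033). The calls of FKBP5, ELL2 and CENPN held in 6, 5 and 7 of 14 alternatives. The sign stayed negative in every alternative for all 4. Without knockdown replicate 3 the falls of FKBP5, ELL2 and CENPN were called, at -0.21, -0.41 and -0.22.

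**Figure D4:**
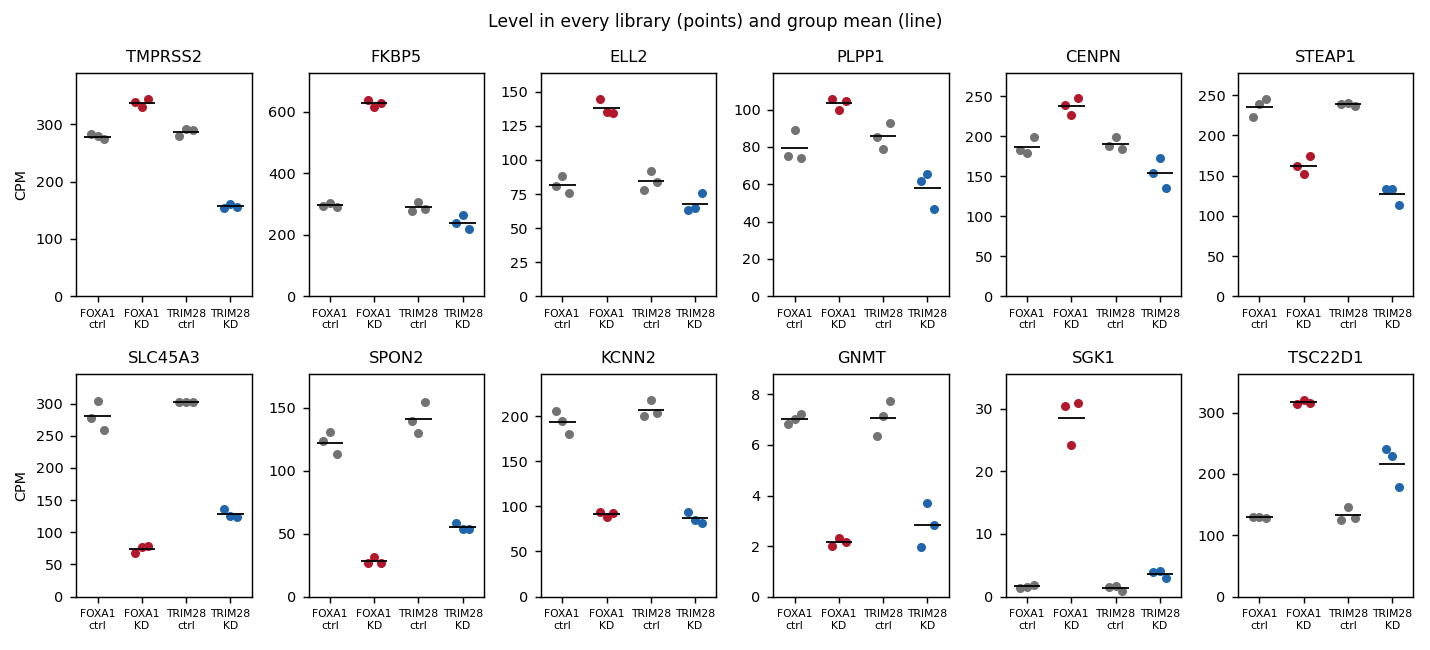
CPM in every library for the 5 split genes, 5 genes that fell in both knockdowns and 2 that rose in both, with points for libraries and a line at each group mean. The axes start at 0, and for TMPRSS2 the FOXA1 knockdown libraries lie above both control groups and the TRIM28 knockdown libraries below.

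Among the membrane and secreted proteins, SPON2, SLC45A3, ACP3 and KCNN2 had the largest falls after FOXA1 knockdown. SPON2, a secreted matrix protein, went from 123, 130 and 113 CPM to 26.9, 31.1 and 26.9 CPM, a fall of 4.33-fold (log2 -2.12 ± 0.07 SE, edgeR adjusted p = 4.36e-20). After TRIM28 knockdown it went from 140, 130 and 155 CPM to 58.1, 53.3 and 53.5 CPM, a fall of 2.57-fold. The knockdown libraries of both arms lay far below their controls, and the fall after FOXA1 knockdown was the larger, with a difference of -0.74 ± 0.12 SE on the log2 scale (edgeR adjusted p = 7.44e-04). SLC45A3, known as prostein and largely restricted to the prostate, went from 278, 304 and 260 CPM to 67.9, 76.7 and 77.9 CPM after FOXA1 knockdown, a fall of 3.78-fold. It went from 303 CPM in each TRIM28 control to 136, 125 and 123 CPM after TRIM28 knockdown, a fall of 2.37-fold. Here too the FOXA1 effect was the larger (difference -0.67 ± 0.10 SE, edgeR adjusted p = 3.70e-04).

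KCNN2, a calcium-activated potassium channel, fell in both knockdowns. It went from 205, 194 and 181 CPM to 93.3, 88.2 and 92.6 CPM after FOXA1 knockdown (log2 -1.08 ± 0.06 SE) and from 200, 218 and 204 CPM to 93.7, 85.4 and 81.3 CPM after TRIM28 knockdown (log2 -1.26 ± 0.09 SE). The difference was 0.18 ± 0.10 SE (edgeR adjusted p = 0.268). ACP3, which encodes prostatic acid phosphatase, went from 16.6, 12.4 and 13.1 CPM to 4.56, 5.15 and 5.52 CPM after FOXA1 knockdown, a fall of 2.77-fold. It went from 17.1, 15.6 and 14.4 CPM to 9.86, 9.91 and 11.4 CPM after TRIM28 knockdown, a fall of 1.51-fold that lost its call without TRIM28 control replicate 1 or 2 or knockdown replicate 2. All knockdown libraries of ACP3 lay below their controls.

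STEAP1 leaned the other way, with the larger fall after TRIM28 knockdown. It went from 223, 239 and 245 CPM to 162, 152 and 174 CPM after FOXA1 knockdown (log2 -0.54 ± 0.05 SE) and from 239, 240 and 237 CPM to 134, 133 and 113 CPM after TRIM28 knockdown (log2 -0.91 ± 0.09 SE). The groups did not overlap in either arm, and the difference of 0.39 ± 0.10 SE was called (edgeR adjusted p = 0.0228). It was not called without FOXA1 control replicate 1, FOXA1 knockdown replicate 3 or TRIM28 control replicate 1, with adjusted p up to 0.0723. STEAP1B, a close paralog, had few counts, and reads of the pair could be split. ABCC4, an export pump for organic anions, fell by 0.68 after FOXA1 and by 0.69 after TRIM28 knockdown on the log2 scale. TRPM8, the cold-sensing channel, fell by 0.29 and 0.34, with calls that were lost without FOXA1 knockdown replicate 2 in the FOXA1 arm, and without any 1 of the 3 TRIM28 controls or knockdown replicate 2 in the TRIM28 arm. Its TRIM28 call held in only 4 of 14 alternatives and was also lost with DESeq2 (adjusted p = 0.0511), library size only (0.101), no filter (0.0722) and both FPKM scales with limma (0.128 and 0.126). STEAP2, an iron and copper reductase, was at -0.38 (called) and -0.28 (edgeR adjusted p = 0.0781), and C1orf116, a specifically androgen-regulated gene of unclear function, at -0.40 (called) and 0.05 (edgeR adjusted p = 0.668). For C1orf116 the difference was called (-0.43 ± 0.11 SE, edgeR adjusted p = 0.0154), and for STEAP2 it was not (-0.09 ± 0.11 SE). In the TRIM28 arm STEAP2 was called without knockdown replicate 3, at a smaller -0.17 (edgeR adjusted p = 0.0334), in 1 fit of all 12 libraries (0.0117) and with no filter on low counts (0.0302). The C1orf116 difference lost its call without FOXA1 control replicate 1 or 2, FOXA1 knockdown replicate 2 or TRIM28 control replicate 1 (edgeR adjusted p up to 0.0587). STEAP4, the family member with the lowest level, had 7, 8 and 9 counts in the FOXA1 controls and 38, 25 and 26 after FOXA1 knockdown, that is 0.503, 0.535 and 0.684 CPM against 2.51, 1.87 and 1.82 CPM (log2 1.84 ± 0.37 SE, edgeR adjusted p = 1.29e-04). This rise, which the filter partly fixes, was 0.96 and 0.19 on the log2(FPKM + 0.1) and log2(FPKM + 1) scales. Without replicate 3 of the TRIM28 knockdown the STEAP4 difference between the effects was called (2.04 ± 0.63 SE, edgeR adjusted p = 0.0155).

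Among the signalling genes, SGK1 had the largest change of all 34 members. This kinase, induced by serum and by glucocorticoids, went from 1.44, 1.54 and 1.90 CPM (20, 23 and 25 counts) to 30.4, 24.2 and 30.9 CPM after FOXA1 knockdown, a rise of 17.5-fold (log2 4.13 ± 0.16 SE, edgeR adjusted p = 1.10e-18). After TRIM28 knockdown it went from 1.51, 1.73 and 0.823 CPM to 3.91, 4.01 and 2.92 CPM, a rise of 2.64-fold (log2 1.40 ± 0.33 SE, edgeR adjusted p = 0.0119). On the log2(FPKM + 1) scale, which shrinks changes of genes this low, the rises were 2.26 and 0.43. The rise was seen in every knockdown library, and the FOXA1 effect was the larger by 2.74 ± 0.34 SE on the log2 scale (edgeR adjusted p = 5.56e-05). The TRIM28 rise rests in part on the lowest control library and lost its call without TRIM28 control replicate 3 (log2 1.15, edgeR adjusted p = 0.0544). TSC22D1, a leucine zipper protein of TGF-beta signalling, went from 130, 129 and 129 CPM to 315, 321 and 315 CPM after FOXA1 knockdown, a rise of 2.45-fold. It went from 124, 145 and 128 CPM to 242, 229 and 179 CPM after TRIM28 knockdown, a rise of 1.63-fold, with replicate 3 the nearest to the controls. The difference was 0.59 ± 0.13 SE (edgeR adjusted p = 0.00507).

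MICAL1, an enzyme that oxidises actin, rose after FOXA1 knockdown from 26.9, 25.2 and 23.9 CPM to 63.3, 73.4 and 64.8 CPM, 2.65-fold (log2 1.40 ± 0.08 SE, edgeR adjusted p = 4.57e-15). In the TRIM28 arm it was 31.9, 28.4 and 30.1 CPM in controls and 45.6, 46.6 and 20.9 CPM after knockdown. Replicates 1 and 2 lay above the controls and replicate 3 below them, and the change was not called (log2 0.32 ± 0.27 SE, edgeR adjusted p = 0.413). Without replicate 3 it was 0.61 ± 0.10 SE and called (edgeR adjusted p = 2.63e-06), and the difference between the effects was then called too (0.81 ± 0.12 SE, against 1.09 ± 0.32 SE and adjusted p = 0.0563 with it). HOMER2, a scaffold of calcium signalling, rose by 0.56 on the log2 scale after FOXA1 knockdown, and PMEPA1, an inhibitor of TGF-beta signalling, by 0.31. After TRIM28 knockdown they were at -0.02 and -0.06, not called, and at 0.06 and 0.014 with scaling by library size only. The difference was called for both (0.59 ± 0.14 SE and 0.39 ± 0.11 SE), but for PMEPA1 it was lost without any 1 of the 6 FOXA1 libraries or the 3 TRIM28 controls (edgeR adjusted p up to 0.105). HERC3, a HECT ubiquitin ligase, was the only member of this group to fall after FOXA1 knockdown (log2 -0.85 ± 0.06 SE), and it also fell after TRIM28 knockdown (-0.42 ± 0.10 SE), a call lost without TRIM28 control replicate 2 or 3 (edgeR adjusted p = 0.0719 and 0.0587). CAMKK2, a kinase upstream of AMPK, was at 0.12 and 0.11, and the cytokine receptor LIFR at -0.03 and 0.25, with no call in either knockdown.

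Of the 5 transcription regulators, MAF rose most. This basic leucine zipper factor went from 9.20, 9.23 and 7.75 CPM to 50.6, 53.3 and 48.0 CPM after FOXA1 knockdown, a rise of 5.78-fold (log2 2.53 ± 0.10 SE, edgeR adjusted p = 6.31e-19). In the TRIM28 arm it was 7.93, 9.25 and 6.83 CPM in controls and 36.4, 35.6 and 8.61 CPM after knockdown. Replicates 1 and 2 stood several times above the controls and replicate 3 lay within their range. The change was not called by the edgeR fit of these 6 libraries (log2 1.75 ± 0.53 SE, edgeR adjusted p = 0.0559). It was called by DESeq2 (adjusted p = 0.0206), with scaling by library size only (0.0376) and in 1 fit of all 12 libraries (0.0144), and not with no filter on low counts (0.249) or on the FPKM scales with limma (0.0652 and 0.0717). Without replicate 3 it was 2.16 ± 0.13 SE (edgeR adjusted p = 5.00e-16). ELL2 rose as given above, whereas EAF2, which encodes a partner of ELL proteins, fell after FOXA1 knockdown (log2 -0.69 ± 0.12 SE) and was at -0.16 after TRIM28 knockdown. ZBTB10, a zinc finger repressor, fell by 0.44 after FOXA1 knockdown and was at -0.26 after TRIM28 knockdown (edgeR adjusted p = 0.0512). That change was called by DESeq2 (adjusted p = 0.0492), in 1 fit of all 12 libraries (edgeR adjusted p = 0.00511) and without knockdown replicate 3 (-0.30, edgeR adjusted p = 3.56e-04). ZMIZ1, a coactivator of the androgen receptor, rose by 0.24, a call lost without FOXA1 knockdown replicate 2 (edgeR adjusted p = 0.0583), and was at 0.12 after TRIM28 knockdown. Without FOXA1 control replicate 3 the rise of ZMIZ1 was 0.13 and still called (edgeR adjusted p = 0.0255).

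**Figure D5:**
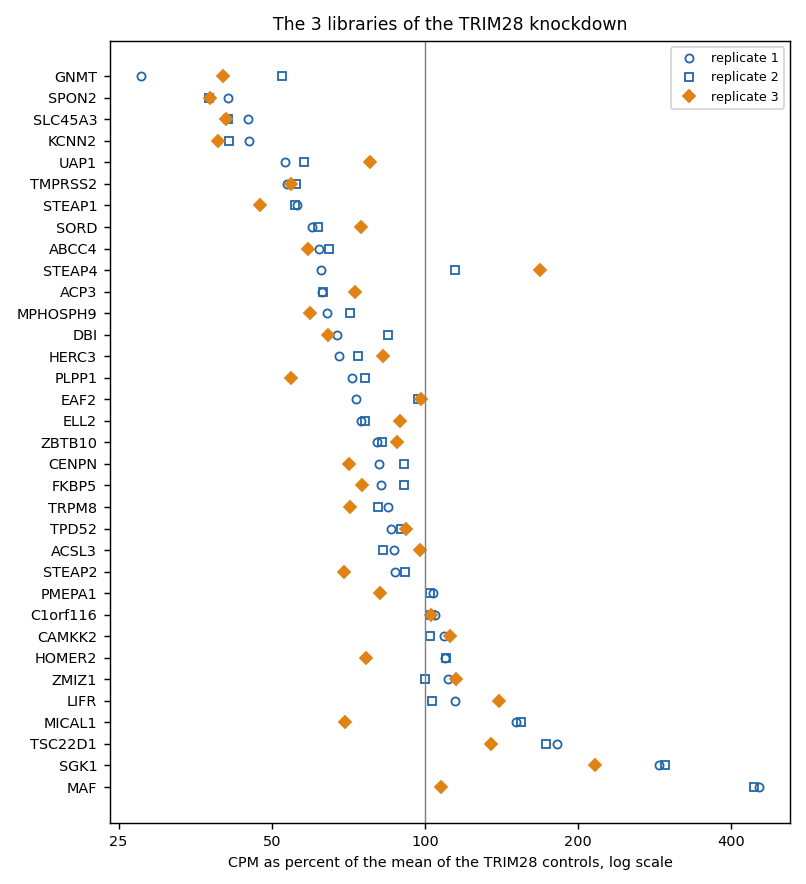
CPM of the 34 genes in each library of the TRIM28 knockdown as percent of the mean of the 3 TRIM28 controls, on a log scale, with replicate 3 in orange. For MAF and MICAL1, replicates 1 and 2 lie well above 100 and replicate 3 does not.

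Of the 6 metabolic genes, 4 fell after FOXA1 knockdown, where 26.3% of all genes were called lower, and 5 after TRIM28 knockdown, where 13.3% were. GNMT, which methylates glycine and so uses up S-adenosylmethionine, went from 6.83, 7.02 and 7.22 CPM to 1.98, 2.31 and 2.16 CPM after FOXA1 knockdown, a fall of 3.26-fold. It went from 6.34, 7.14 and 7.74 CPM to 1.96, 3.70 and 2.84 CPM after TRIM28 knockdown, a fall of 2.50-fold. Both falls were several times the spread between libraries, on counts of 26 to 105, and the difference was not called (-0.37 ± 0.31 SE). SORD, which turns sorbitol into fructose, went from 694, 732 and 693 CPM to 387, 344 and 360 CPM after FOXA1 knockdown (log2 -0.96 ± 0.05 SE) and fell by 0.61 after TRIM28 knockdown. Its near-identical copy SORD2P had few counts, and reads of the pair could be split. UAP1 fell by 0.56 and 0.67, and in the TRIM28 arm replicate 3, at 323 CPM, lay closer to the controls (386 to 434 CPM) than replicates 1 and 2, at 220 and 240 CPM. Without replicate 3 the difference between the effects was called for UAP1 (0.31 ± 0.08 SE, edgeR adjusted p = 0.0042, against 0.12 ± 0.15 SE with it) and for SORD (-0.22 ± 0.08 SE, edgeR adjusted p = 0.041, against -0.34 ± 0.11 SE with it). ACSL3, an acyl-CoA synthetase of lipid droplets, fell by 0.48 after FOXA1 knockdown and was at -0.16 after TRIM28 knockdown, where replicate 3 lay within the range of the controls. Without that replicate ACSL3 was at -0.24 and called (edgeR adjusted p = 0.00239). DBI was at -0.08 after FOXA1 knockdown and fell by 0.47 after TRIM28 knockdown. The DBI fall lost its call without TRIM28 control replicate 1 or 2 (edgeR adjusted p = 0.0509 and 0.0552).

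Besides CENPN, 2 genes of cell division and trafficking were measured. MPHOSPH9, a centriole protein, fell by 0.50 after FOXA1 knockdown and by 0.62 after TRIM28 knockdown, with no call for the difference (0.13 ± 0.10 SE). TPD52, a vesicle trafficking protein often gained in prostate cancer, was at -0.02 and -0.17, called in neither. Without replicate 3 of the TRIM28 knockdown the latter was -0.20 and called (edgeR adjusted p = 0.0116). It was also called in 1 fit of all 12 libraries (edgeR adjusted p = 0.0355).

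A wider list of 77 androgen-induced genes, recalled from a commonly used androgen response set and holding none of the 34, was read from the same fits. This list too was chosen with earlier results of these data known. After FOXA1 knockdown 32 of 76 tested fell and 28 rose, against 26.3% and 26.1% of all genes, with a median log2 fold change of -0.12 against -0.02. After TRIM28 knockdown 25 of 77 fell and 7 rose, against 13.3% in each direction, with a median of -0.12 against 0.00. In the FOXA1 arm the falls with small p-values included INPP4B, a lipid phosphatase, and ARID5B, a chromatin regulator (log2 -2.91 and -1.17), and the smallest p-values of the rises belonged to the cyclin CCND1, the stress gene NDRG1 and the desaturase FADS1 (1.39, 1.08 and 0.94). In the TRIM28 arm they included the falls of INPP4B and the ETS factor SPDEF (-1.56 and -1.25) and the rises of CCND1 and APPBP2 (1.11 and 0.31). The APPBP2 call was lost without any 1 of the TRIM28 controls or knockdown replicate 2 (edgeR adjusted p up to 0.0922). In this list of 77, 4 genes split as TMPRSS2 did, against 0.531% of all genes tested in both: ELOVL5, FADS1, GSR and KLK3. Whether the calls of ELOVL5, GSR and KLK3 hold in the alternatives is not given here. FADS1 went from 110 ± 5.95 to 211 ± 4.72 CPM after FOXA1 knockdown and from 112 ± 9.28 to 68.5 ± 6.15 CPM after TRIM28 knockdown. CDK6 alone split in the opposite sense, against 0.352% of all genes.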

How the data were processed

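Poly(A) RNA was sequenced in 12 libraries, per the labels' protocols. Raw counts of reads for each gene symbol were deposited in 1 table for each knockdown with its control, next to FPKM values for all libraries. The submitters' processing notes name GRCh38 (hg38) as the build. Not given in the sources used here are the aligner, counter, strand setting and annotation. Each deposited table had 62710 lines for 60835 symbols, and repeats of a symbol held the same value and were kept once (HERC3 was on 2 lines). The deposited FPKM values equalled count divided by 1 length per gene for 14245 of 14245 genes checked (relative tolerance 0.001). For some replicates the genotype label carries a gene number next to that of FOXA1 or TRIM28, so that label was not used: controls were grouped by title and knockdowns by treatment label.

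Counts were tested with edgeR 4.0.16 in R 4.3.3 (TMM, filterByExpr with minimum count 10 and minimum total 15, robust quasi-likelihood F-test, two-sided, Benjamini-Hochberg over all tested genes, threshold 0.05), with 6 libraries for each comparison and 12 for the difference of effects. Errors of log2 fold changes are standard errors of the fit. DESeq2 1.42.0, limma 3.58.1 on log2(FPKM + 0.1) and log2(FPKM + 1), other scalings, no filter, a replicate block, 1 fit of all libraries and leaving out each library were alternatives. The scripts were tested on simulated counts, where the share of calls that fell on unchanged genes was above the nominal 0.05 and small changes were often missed, more so in the TRIM28 comparison. Depth was 12256092 to 15152890 counts per library. Exon overlaps were taken from GENCODE release 29. The batch label was 1 throughout, which leaves no batches to compare.

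The members, the role groups, the wider list and the markers were chosen with earlier results of these data known. Values of every library are given for members called in opposite directions and for up to 6 rises and 6 falls with the largest change per knockdown, and for the wider list up to 3 genes with the smallest p per direction and knockdown. Some genes are left out of this account.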

Additional observations from a re-analysis of the deposited data

Results flagged for a closer look

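For 16 of the 34 genes the effect of FOXA1 knockdown differed from that of TRIM28 knockdown by the test of the difference itself (edgeR quasi-likelihood contrast over 12 libraries, adjusted p below 0.05). On the log2 scale, as FOXA1 effect minus TRIM28 effect, the positive differences were 2.74 for SGK1, 1.37 for FKBP5, 1.16 for TMPRSS2, 1.09 for ELL2, 0.96 for PLPP1, 0.66 for CENPN, 0.59 for TSC22D1, 0.59 for HOMER2, 0.39 for STEAP1 and 0.39 for PMEPA1. STEAP1 fell in both knockdowns and TSC22D1 and SGK1 rose in both, so their difference is one of size. The negative differences were -0.86 for ACP3, -0.74 for SPON2, -0.67 for SLC45A3, -0.43 for C1orf116, -0.42 for HERC3 and -0.31 for ACSL3. Of these 16 calls, 10 held in all 17 alternatives. The difference was called in 5 of the 17 for ACSL3, 7 for PMEPA1, 8 for HERC3, 13 for C1orf116 and for STEAP1, and 16 for ACP3. Among genes outside the 34, the difference was 1.65 for FADS1, 1.04 for NDRG1 and -1.34 for INPP4B. For the knockdown targets themselves it was -0.87 for FOXA1 and 1.83 for TRIM28.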

How the results depend on the processing

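Leaving out 1 library at a time, the members called after TRIM28 knockdown ranged from 1 to 4 higher and from 11 to 22 lower, all genes called from 924 to 3333 higher and from 881 to 3633 lower, and members with a FOXA1 effect below the TRIM28 effect from 2 to 8. The share of all genes with a FOXA1 effect called below the TRIM28 effect ranged from 2.6% to 8.64%. The counts of members after FOXA1 knockdown stayed at 12 or 13 higher and 16 or 17 lower in all 14 alternatives. Of the calls, 28 of 30 after FOXA1 knockdown, 11 of 20 after TRIM28 knockdown and 10 of 16 of the difference held in every alternative. Those lost in some were TRPM8 and ZMIZ1 for FOXA1, ACP3, CENPN, DBI, ELL2, FKBP5, HERC3, PLPP1, SGK1 and TRPM8 for TRIM28, and ACP3, ACSL3, C1orf116, HERC3, PMEPA1 and STEAP1 for the difference. The 28 FOXA1 calls that held include STEAP4, whose rise the filter partly fixes. Small changes that were not called crossed 0. Leaving out 1 library at a time, the log2 fold change after FOXA1 knockdown ranged from -0.069 to 0.012 for TPD52, -0.15 to 0.048 for DBI (0.0031 without knockdown 2) and -0.085 to 0.042 for LIFR. After TRIM28 knockdown it ranged from -0.19 to 0.49 for STEAP4, -0.12 to 0.038 for PMEPA1, -0.10 to 0.13 for HOMER2 and -0.021 to 0.18 for NDRG1 (-0.013 without control 1, -0.0063 without knockdown 1). With library size only it was 0.014 for PMEPA1 and 0.060 for HOMER2, and with FPKM and limma 0.0037 and 0.0039 for PMEPA1 and 0.036 and 0.035 for HOMER2. The difference ranged from -0.012 to 0.089 for ABCC4 (-6.65e-04 without TRIM28 knockdown 3), -0.0098 to 0.075 for CAMKK2 and -0.015 to 0.18 for SPDEF (-0.0069 without TRIM28 knockdown 2). With library size only it was -0.0076 for TRPM8, -0.046 for ABCC4 and -0.042 for CAMKK2. The cause was not tested.

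Pairing of samples by replicate number was not shown. Deviations of same-numbered control and knockdown libraries correlated at -0.075, 0.045 and 0.197 in the FOXA1 arm and 0.112, -0.079 and 0.062 in the TRIM28 arm, over 11352 genes. Those of differently numbered libraries correlated at -0.230 to 0.182 in the FOXA1 arm and -0.171 to 0.169 in the TRIM28 arm. With 3 libraries a group this check cannot exclude pairing. With the replicate block, members called were 13 higher and 17 lower for FOXA1, 3 and 16 for TRIM28, and 12 and 5 for the difference. In the TRIM28 arm the block brought in the rise of MAF (1.58, edgeR adjusted p = 0.0126). It left out the falls of TRPM8 (edgeR adjusted p = 0.0625) and of ELL2, a split gene (edgeR adjusted p = 0.050033). Genes of under about 10 counts were not tested, and with 3 libraries a group only changes well above the spread between libraries can be called.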
